A study of Homo sapiens with 2 samples.

Results

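The autophagy core genes are 36 genes named by their place in the pathway: the ULK and class III phosphatidylinositol 3-kinase (PI3K) complexes, membrane supply and lipid transfer, the conjugation machinery, the ATG4 proteases, the ATG8 proteins and the cargo receptors. Members were taken where the gene symbol of the deposited table equals the name, which held for 35 of the 36, in a table of 16424 listed genes. ATG101 is listed under its older symbol C12orf44. It is described with its identifier, and it is kept out of the counts and sums, except the count of all promoters found.

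The values are from cap analysis of gene expression (CAGE), which sequences a short tag from the 5′ end of each capped RNA. The cells were PLC/PRF/5, a human hepatoma line. The non-treated cells had 0 µg/ml of M2BPGi, a glycosylation variant of Mac-2 binding protein. The M2BPGi-treated cells had 3 µg/ml of it for 6 h. Each condition has 1 library, of 24040209 tags without and 24862941 tags with M2BPGi, so no difference given here has a replicate check.

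Macroautophagy encloses part of the cytoplasm in a double membrane, the autophagosome, and delivers it to the lysosome. The ULK kinase complex starts the process, a PI3K complex marks the membrane with phosphatidylinositol 3-phosphate, ATG9 vesicles and ATG2 supply lipid, and a pair of ubiquitin-like conjugation systems attach ATG8 proteins to the growing membrane, where cargo receptors bind them. In hepatocytes autophagy turns over organelles, lipid droplets and protein aggregates, and mTORC1 holds back its initiation when nutrients are plentiful.

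Levels are tag counts scaled to the size of the library (CPM). A capped RNA gives 1 tag whatever its length, so CPM was compared between genes without division by length. A log2 ratio sets the CPM with M2BPGi over the CPM without it, each after addition of 1 CPM, which understates the difference of low genes. Genes were compared where the 2 libraries averaged at least 1 CPM. An interval is the 95% Clopper-Pearson interval of a log2 tag ratio without that addition, and it covers counting error only. It is about the 2 libraries and not about the conditions. In a bulk culture, less RNA in each cell and fewer cells that express a gene cannot be told apart.

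Of the 35 members, 33 averaged at least 1 CPM. ULK2, a paralog of the ULK1 kinase, was listed at 0 CPM in both libraries, where 0 tags allow up to 0.125 CPM without and 0.121 CPM with M2BPGi. MAP1LC3A, an LC3 paralog, had 0.08 CPM without and 0.04 CPM with M2BPGi, under these limits. Both are thus below what these libraries can compare. For the 33 other members the median level was 35.9 CPM without and 37.0 CPM with M2BPGi, against 21.26 and 20.35 CPM over the 13724 genes that pass the same filter. The members ranged from AMBRA1 with 4.37 CPM to SQSTM1 with 724 CPM in non-treated cells, and 7 of them averaged under 10 CPM.

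The members lay on both sides of a log2 ratio of 0. Of the 33, 18 were higher and 15 lower with M2BPGi. The median of their log2 ratios was 0.03, between quartiles of -0.15 and 0.17. Over all 13724 genes the median was -0.05. Of these genes, 42.9% were higher, and the quartiles were -0.26 and 0.14. The median of the members was -0.01 when members with a near-identical copy at another locus were left out. Of the 33 members, 6 were at least 1.2-fold higher with M2BPGi (18.2%, against 13.0% of all genes) and 6 at least 1.2-fold lower (18.2%, against 24.2% of all genes). Among the 26 members that averaged at least 10 CPM these counts were 5 (19.2%, against 13.2% of the 9464 genes at that level) and 2 (7.69%, against 21.1%), since 4 of the lower members averaged less. With 5 CPM added in place of 1 they were 4 (12.1%, against 8.95% of all genes) and 3 (9.09%, against 16.0%). Among the 29 members for which no copy was found they were 4 (13.8%) and 6 (20.7%), and copies were not searched for all genes. At 1.5-fold, 0 members were higher (1.6% of all genes) and 1 was lower (4.04% of all genes), ATG2A. The interval lay above a ratio of 1 for 9 members (27.3%, against 22.8% of all genes) and below it for 7 members (21.2%, against 31.5% of all genes). Among the 26 members that averaged at least 10 CPM these counts were 9 (34.6%, against 28.9% of genes at that level) and 3 (11.5%, against 34.8%), and among those for which no copy was found 6 (20.7%) and 7 (24.1%). After both libraries were scaled so that the log2 ratios of all genes had a median of 0, the interval lay above a ratio of 1 for 14 of the 33 (42.4%, against 27.7% of all genes in that scaling) and below it for 5 (15.2%, against 26.0%). This scaling added AMBRA1, ATG4B, ATG4D, SQSTM1 and CALCOCO2 to those above and took ATG13 and ATG4A from those below.

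**Figure D1:**
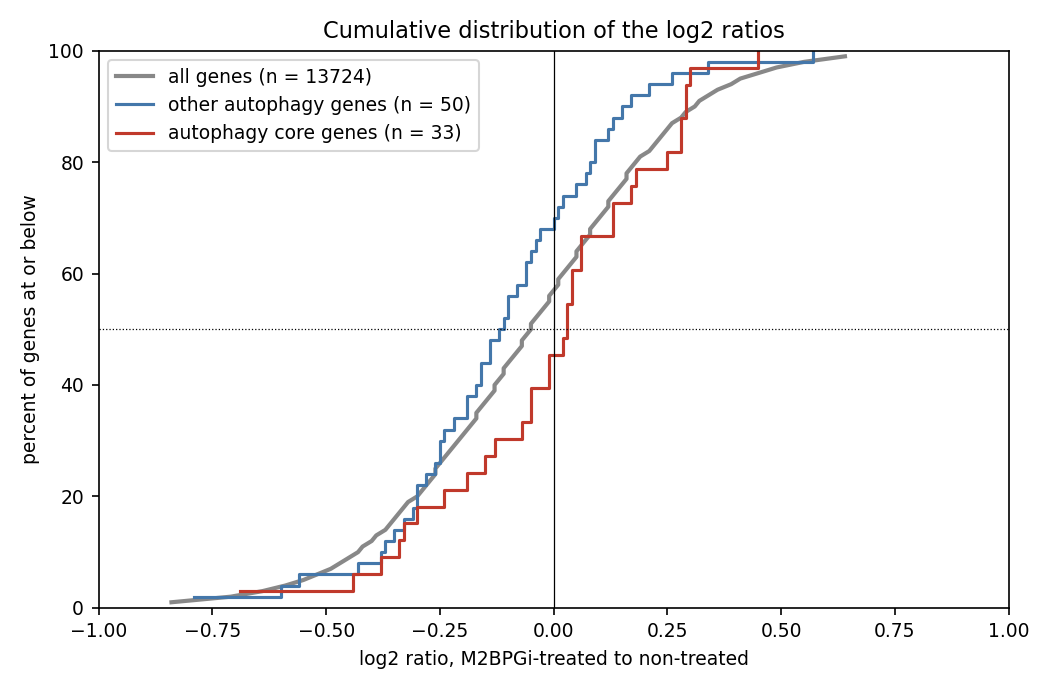
Cumulative percent of genes at or below each log2 ratio (with M2BPGi over without), for the 33 autophagy core genes, the 50 other autophagy genes and all 13724 genes that averaged at least 1 CPM. The lines cross the dotted 50% level at medians of 0.03, -0.11 and -0.05, and the core genes spread from -0.69 to 0.45.

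The ULK members compared were all lower and the ATG8 members all higher, while each other role held members on both sides of 0. The ULK, PI3K and membrane supply groups act before the ATG8 proteins are attached. Together 3 of their 14 members were higher (21.4%, against 42.9% of all genes) and 11 lower, with a median log2 ratio of -0.14. In the conjugation, ATG4, ATG8 and cargo receptor groups together, 15 of 19 were higher (78.9%) and 4 lower, with a median of 0.13. The groups were joined this way after their values were seen, and this split was not tested. After rescaling, UVRAG, WIPI1 and ATG16L1, with log2 ratios of -0.01, -0.05 and -0.01, turned from lower to higher. The medians of the 7 roles kept their signs, that of the PI3K complexes at -0.02. In the deposited scaling the intervals of summed CPM lay below a ratio of 1 for the ULK complex (-0.19 to -0.03) and the PI3K complexes (-0.2 to -0.04). Rescaled, both hold 1, at -0.14 to 0.02 and -0.15 to 0.01.

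**Figure D2:**
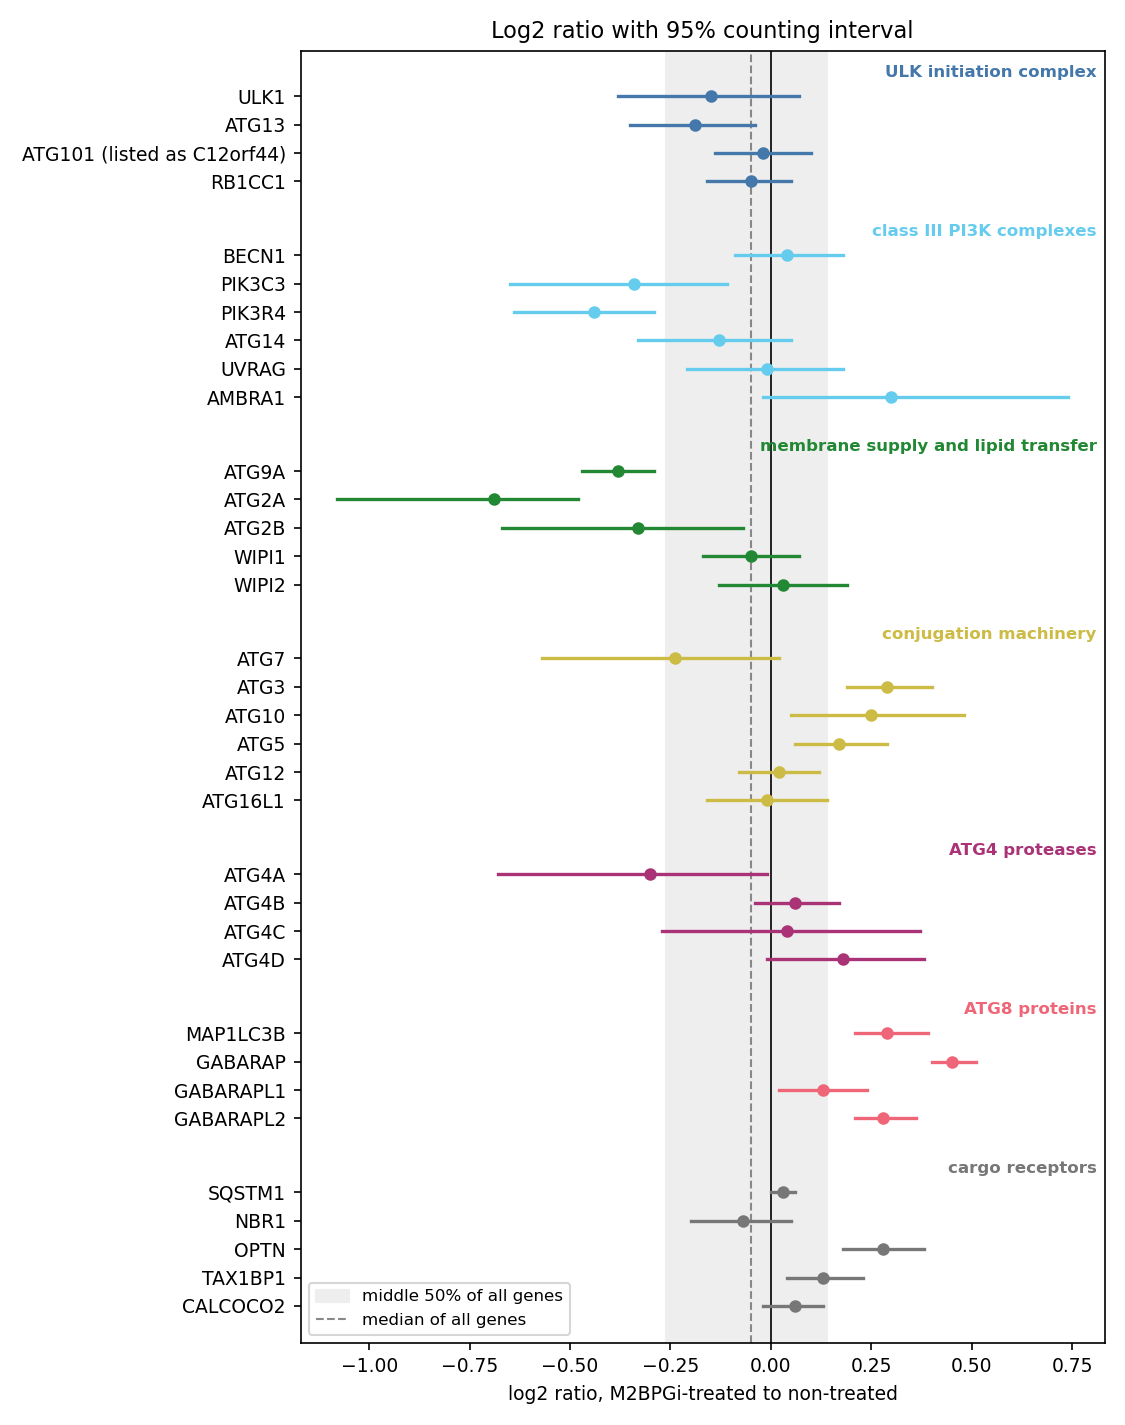
Log2 ratio of CPM, M2BPGi-treated over non-treated (points), and the 95% counting interval of the tag ratio (lines) for each member that averaged at least 1 CPM, by role, and ATG101 under its older symbol. The grey band holds the middle 50% of all genes, from -0.26 to 0.14, and the dashed line is their median. ATG2A at -0.69 and GABARAP at 0.45 are the ends of the range.

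The ULK complex is the kinase assembly that starts autophagosome formation. ULK1, its protein kinase, had 14.2 CPM without and 12.7 CPM with M2BPGi. ATG13, the regulatory subunit that binds the kinase, had 29.95 and 26.1 CPM. RB1CC1, the scaffold also called FIP200, had 58.5 and 56.3 CPM. All 3 were lower with M2BPGi, at log2 ratios of -0.15, -0.19 and -0.05, and the interval stayed below a ratio of 1 for ATG13 (-0.35 to -0.04, and -0.30 to 0.01 after rescaling) but not for ULK1 (-0.38 to 0.07) or RB1CC1 (-0.16 to 0.05). ATG101 (ENSG00000123395), which stabilises ATG13, had 45.7 and 45.05 CPM, a log2 ratio of -0.02. The scaffold was the most abundant of them and took 57.0% of the group's CPM in non-treated cells. The summed level of the group was 103 CPM without and 95.2 CPM with M2BPGi.

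The class III PI3K complexes make phosphatidylinositol 3-phosphate on the forming membrane. Their catalytic subunit PIK3C3, also called VPS34, had 10.9 CPM without and 8.37 CPM with M2BPGi. The pseudokinase PIK3R4 (ENSG00000196455, chromosome 3), or VPS15, which anchors PIK3C3, had 25.2 and 18.3 CPM. These catalytic core subunits were both at least 1.2-fold lower, with log2 ratios of -0.34 and -0.44. With 5 CPM added in place of 1 these were -0.25 and -0.38, the first of which is short of 1.2-fold. PIK3R4 lay above only 9.41% of all genes, and its interval was -0.64 to -0.29. The shared scaffold BECN1 was level instead, with 35.9 CPM without and 37.0 CPM with M2BPGi and an interval of -0.09 to 0.18. ATG14, the subunit that directs the complex to autophagosome formation, had 19.3 and 17.5 CPM. UVRAG, the subunit of the endosomal complex, had 17.7 and 17.5 CPM. The intervals of both hold a ratio of 1, so the subunits that define the alternative complexes did not differ detectably at this depth. AMBRA1, which links the complex to the ULK kinase and to ubiquitin ligases, had 4.37 and 5.59 CPM, a log2 ratio of 0.30, or 0.18 with 5 CPM added. It was the least abundant member compared in non-treated cells. Its interval of -0.02 to 0.74 holds a ratio of 1, and after rescaling it was 0.03 to 0.79, above 1. AMBRA1 and ATG13 lie 23.4 kb apart on chromosome 11 in the GRCh38 annotation of GENCODE v29, on opposite strands, and their log2 ratios had opposite signs.

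Membrane supply and lipid transfer had the lowest ratio of summed CPM of the 7 roles, 0.84, and a median log2 ratio of -0.33. Among members that averaged at least 10 CPM, which leaves out the ATG2 genes, its median was -0.05, above those of the ULK complex (-0.15) and the PI3K complexes (-0.07). ATG9A (ENSG00000198925, chromosome 2), the lipid scramblase whose vesicles seed the autophagosome, had 98.9 CPM without and 75.9 CPM with M2BPGi. ATG2A (ENSG00000110046, chromosome 11), a bridge protein that moves lipid from the endoplasmic reticulum, had 10.7 and 6.23 CPM. Its paralog ATG2B had 8.74 and 6.76 CPM. Of the 5 members of this role, ATG9A, ATG2A and ATG2B were at least 1.2-fold lower with M2BPGi, as were 24.2% of all genes. The intervals of these 3 stayed below a ratio of 1, as did those of 31.5% of all genes. ATG2A had the lowest log2 ratio of the members with -0.69 (interval -1.08 to -0.48), above only 2.24% of all genes. With 5 CPM added in place of 1 it was -0.48, no longer 1.5-fold lower. ATG9A had -0.38 (interval -0.47 to -0.29) and ATG2B -0.33 (interval -0.67 to -0.07), which with 5 CPM added were -0.36 and, short of 1.2-fold, -0.22. ATG9A alone made up 41.6% of the summed CPM difference of the members that were lower. The phosphoinositide-binding proteins that recruit ATG2 and ATG16L1 were close to level. WIPI1 had 46.55 CPM without and 44.9 CPM with M2BPGi, and WIPI2 had 25.75 and 26.3 CPM. Their log2 ratios were -0.05 and 0.03, the first of which turns positive after rescaling, so the lower values of this role came from ATG9A and the ATG2 genes. The summed level of the 5 genes was 191 CPM without and 160.1 CPM with M2BPGi, a log2 ratio of -0.25 with an interval of -0.31 to -0.19.

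**Figure D3:**
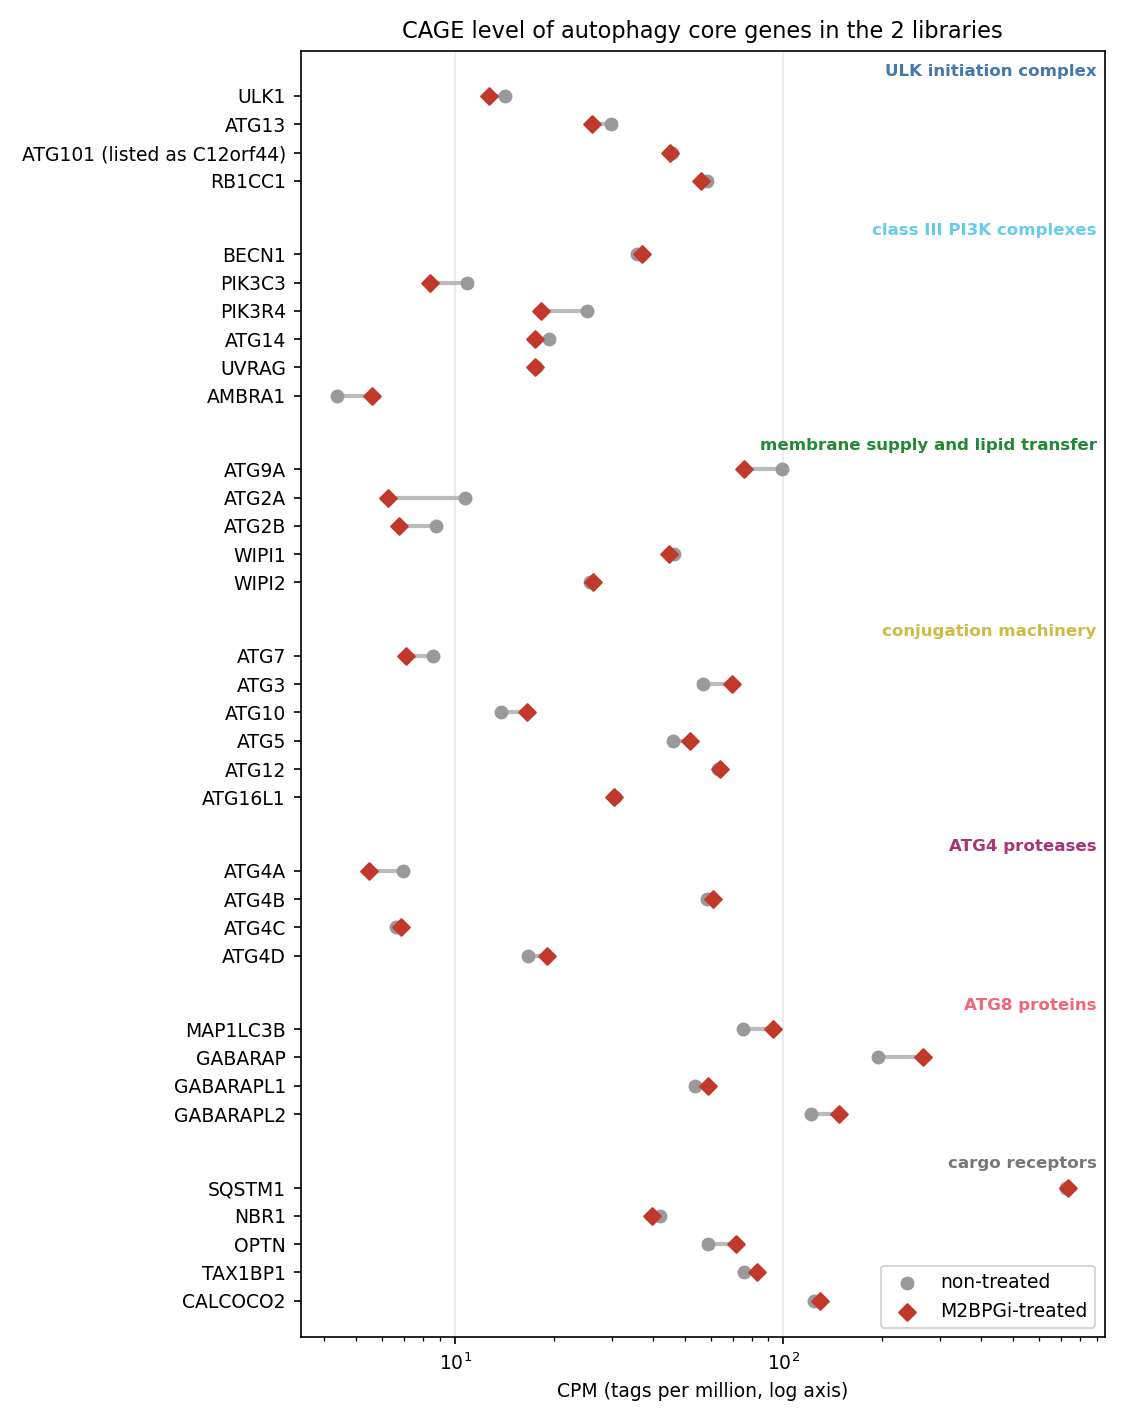
CPM of each member that averaged at least 1 CPM in non-treated cells (grey circles) and M2BPGi-treated cells (red diamonds) on a log axis, by role, with ATG101 listed as C12orf44. SQSTM1 at 724 and 737 CPM stands above the other members, and the grey joining lines are longest for ATG2A and PIK3R4, which were lower, and GABARAP, which was higher.

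The conjugation machinery attaches ATG12 to ATG5 and ATG8 proteins to phosphatidylethanolamine. ATG7, the E1-like enzyme that serves both reactions, had 8.57 CPM without and 7.08 CPM with M2BPGi, and its interval of -0.57 to 0.02 holds a ratio of 1. The E2-like enzymes were higher instead. ATG3, which hands over ATG8 proteins, had 56.9 and 69.7 CPM, a log2 ratio of 0.29 (interval 0.19 to 0.40). ATG10, which hands over ATG12, had 13.8 and 16.5 CPM, a log2 ratio of 0.25 (interval 0.05 to 0.48). The E2-like genes were thus above a ratio of 1, and a difference from the E1-like gene upstream of them was not tested. ATG5, the acceptor of ATG12, had 46.2 CPM without and 52.1 CPM with M2BPGi, a log2 ratio of 0.17 (interval 0.06 to 0.29). ATG12 itself had 63.3 and 64.1 CPM, and ATG16L1, which places the conjugate on the membrane, had 30.7 and 30.45 CPM. The intervals of ATG12 (-0.08 to 0.12) and ATG16L1 (-0.16 to 0.14) hold a ratio of 1 and overlap that of ATG5, and a difference among the components of the ATG12-ATG5-ATG16L1 complex was not tested. The summed level of the 6 genes was 219 CPM without and 239.96 CPM with M2BPGi.

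The ATG4 proteases trim newly made ATG8 proteins and release them from membranes. ATG4B, the most active of them, had 58.5 CPM without and 61.2 CPM with M2BPGi and took 65.9% and 66.1% of the group's CPM. ATG4D had 16.7 and 19.0 CPM, and ATG4C had 6.61 and 6.84 CPM. The intervals of these 3 genes hold a ratio of 1, and after rescaling those of ATG4B (0.01 to 0.22) and ATG4D (0.04 to 0.43) lay above it. ATG4A had 6.95 and 5.47 CPM, a log2 ratio of -0.30, and its interval of -0.68 to -0.01 ends just below a ratio of 1, while after rescaling (-0.63 to 0.04) it holds 1. The summed level was 88.8 CPM without and 92.5 CPM with M2BPGi, with an interval of -0.03 to 0.15 that holds a ratio of 1. After rescaling it was 0.02 to 0.20, so whether the protease genes as a group lie above a ratio of 1 depends on the scaling.

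The ATG8 proteins are small ubiquitin-like proteins that coat the autophagosome, in an LC3 and a GABARAP subfamily. GABARAP (ENSG00000170296, chromosome 17) had 195 CPM without and 267 CPM with M2BPGi. It had the highest log2 ratio of the members with 0.45 (interval 0.40 to 0.51), above 96.2% of all genes. GABARAPL2, also called GATE-16, had 121 and 148 CPM, a log2 ratio of 0.28 (interval 0.21 to 0.36). MAP1LC3B, the LC3 gene whose protein is the usual marker of autophagosomes, had 75.5 and 92.7 CPM, a log2 ratio of 0.29 (interval 0.21 to 0.39). GABARAPL1 had 53.8 and 58.96 CPM, a log2 ratio of 0.13 (interval 0.02 to 0.24). All 4 ATG8 genes that averaged at least 1 CPM were higher with M2BPGi, and each interval lay above a ratio of 1. GABARAP was the most abundant of them in both libraries, with 2.58 times the CPM of MAP1LC3B without and 2.88 times with M2BPGi.

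As a group the ATG8 genes had the highest ratio of the 7 roles. Their summed level was 445 CPM without and 567 CPM with M2BPGi, a ratio of 1.27 and a log2 ratio of 0.35 (interval 0.31 to 0.38). They took 20.4% of the summed CPM of the members without and 24.4% with M2BPGi. The sum over the 35 members was 2185 CPM without and 2319.6 CPM with M2BPGi. Of the summed CPM difference of the members that were higher, 63.8% was on ATG8 genes and 38.1% on GABARAP alone.

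**Figure D4:**
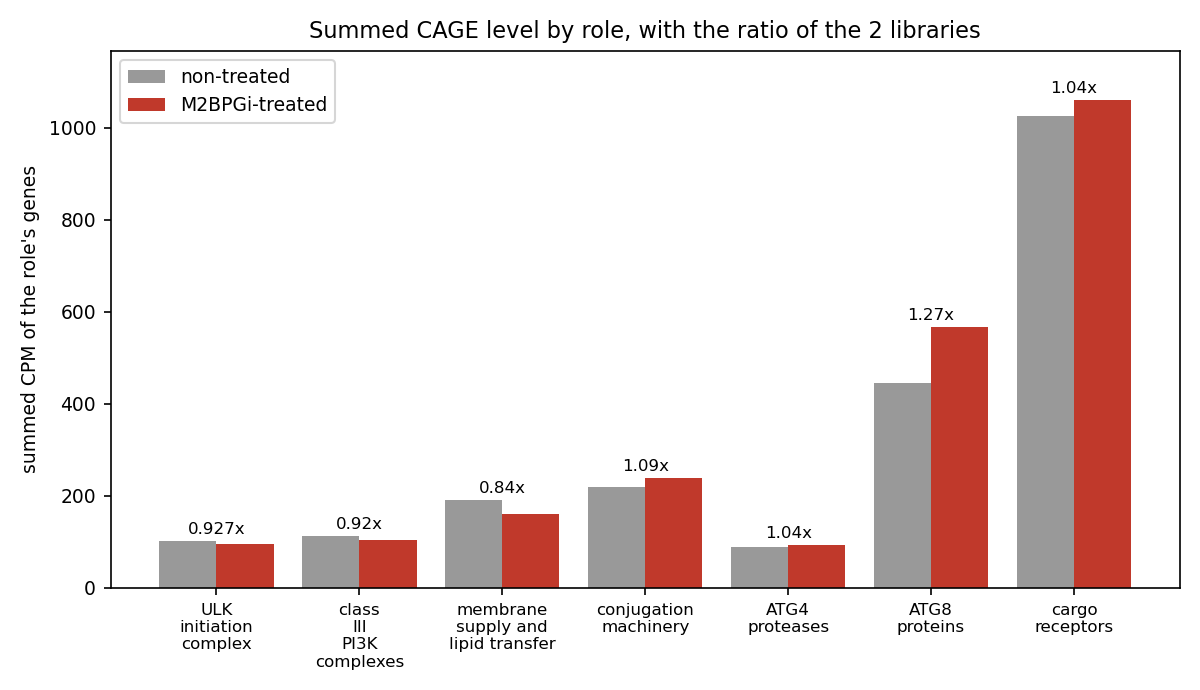
Summed CPM of the members of each role in non-treated (grey) and M2BPGi-treated cells (red), with the ratio of the sums above each pair. The ATG8 proteins have the highest ratio, 1.27, and membrane supply and lipid transfer the lowest, 0.84.

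How tags that match more than 1 place were assigned is not given in the sources used here, so levels of genes with a near-identical copy are uncertain. Of the ATG8 genes compared, 3 have such a copy. The first 500 nt of a GABARAP transcript match the processed pseudogene AC096533.1 with 95.5% identity over 265 nt, those of GABARAPL1 match GABARAPL3 with 95.5% over 354 nt, and those of MAP1LC3B match MAP1LC3B2 with 96.6% over 297 nt. AC096533.1 had 0.79 CPM without and 0.76 CPM with M2BPGi, far below GABARAP, and MAP1LC3B2 had 1.0 and 1.53 CPM. GABARAPL3 is not among the listed genes. A low value on a copy does not show to which gene shared tags were given, and the part of such tags in the ATG8 values was not tested. GABARAPL2 is the 1 ATG8 gene compared for which no copy was found. Among the other members ATG12 has a copy, AC025198.1, with 98.4% identity over 257 nt. GABARAP, AMBRA1, ATG16L1 and ATG4D overlap another annotated gene on the same strand. Of these partners SCARNA5, within ATG16L1, had 0.12 CPM in both libraries and MIR1238, within ATG4D, had 0.08 and 0.20 CPM. The partners of GABARAP (AC120057.2) and AMBRA1 (AC024293.1) are listed under other symbols, and their CPM was not read.

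The cargo receptors bind ubiquitinated or damaged cargo and an ATG8 protein at once. SQSTM1, or p62, had 724 CPM without and 737 CPM with M2BPGi, rank 160 and 186 among the listed genes. It was the most abundant member in both libraries and took 33.1% and 31.8% of the members' summed CPM. Its log2 ratio was 0.03, and although its tags are many, the interval of 0.00 to 0.06 does not lie clear of a ratio of 1. OPTN, optineurin, a receptor for damaged mitochondria and bacteria, had 58.8 and 71.5 CPM, a log2 ratio of 0.28 (interval 0.18 to 0.38), and was the only receptor at least 1.2-fold higher, which it was not with 5 CPM added (0.26). TAX1BP1, a receptor for protein aggregates and bacteria, had 75.8 and 83.1 CPM, a log2 ratio of 0.13 (interval 0.04 to 0.23). CALCOCO2, or NDP52, a receptor for bacteria and mitochondria, had 124 and 129 CPM, and NBR1, a receptor for aggregates and peroxisomes, had 41.97 and 39.9 CPM. The intervals of CALCOCO2 and NBR1 hold a ratio of 1 in the deposited scaling, while those of OPTN and TAX1BP1 lie above it. After rescaling the intervals of SQSTM1 (0.05 to 0.11) and CALCOCO2 (0.04 to 0.18) lay above a ratio of 1 as well. SQSTM1 had 3.72 times the CPM of GABARAP without and 2.76 times with M2BPGi, since GABARAP was higher and SQSTM1 nearly level.

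The members also differ in a property that went with the log2 ratio across the whole table, the length of the transcript. Over 13554 genes with a length, Spearman's rho between the median transcript length in GENCODE v29 and the log2 ratio was -0.19, across genes, which are not independent replicates. Over the 33 members it was -0.53, and it was -0.40 over the 29 members that are not ATG8 genes. The genes were put in 4 classes of nearly equal size by length. That length is a median over annotated transcripts and need not be that of the RNA in these cells. The 3 members in the class of shortest transcripts were GABARAP, GABARAPL1 and GABARAPL2, and their median log2 ratio was 0.28, against 0.04 for the 3389 genes of that class. The 7 members in the class of longest transcripts, among them PIK3R4, ATG2A and ATG2B, had a median of -0.15, against -0.13 for the genes of that class. In the classes between, from shorter to longer, 8 members had a median of 0.05 against -0.02, and 15 had -0.01 against -0.07. MAP1LC3B, the other ATG8 gene compared, was in the class next to the shortest. Among the 3100 genes with transcripts as long as those of the ATG8 genes, from 718.5 to 1656.5 nt, GABARAP lay above 94.5%, MAP1LC3B above 83.3%, GABARAPL2 above 82.2% and GABARAPL1 above 62.4%. The part of transcript length in the result was not tested.

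**Figure D5:**
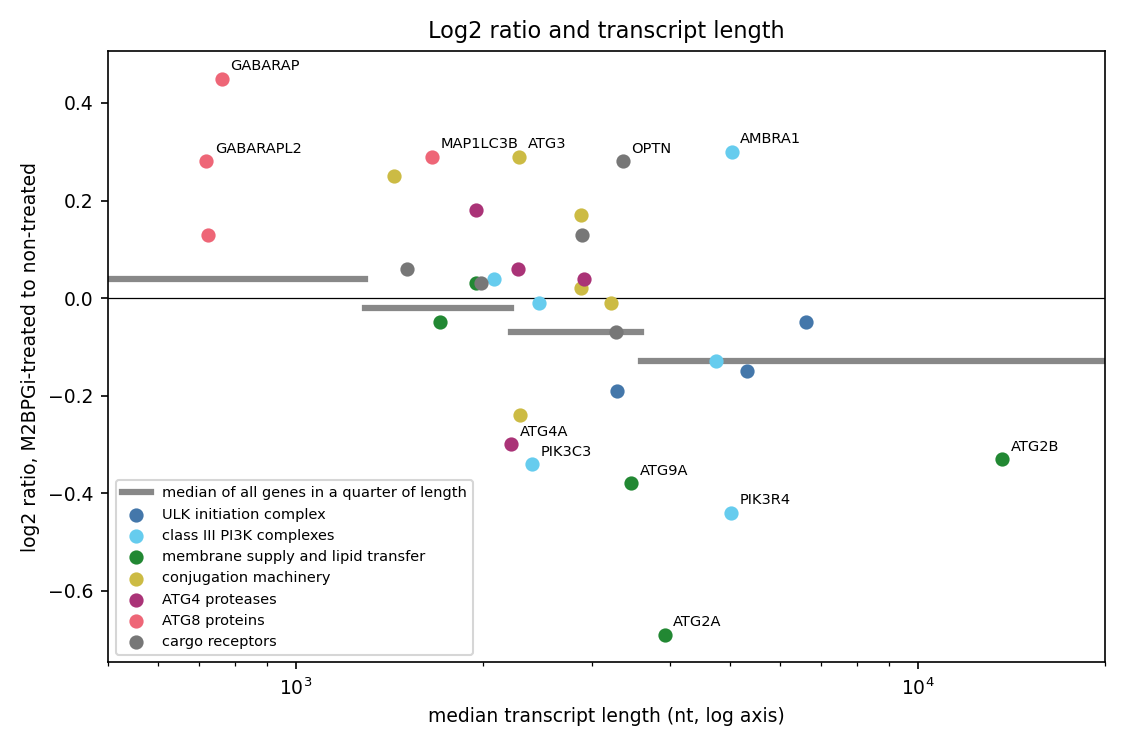
Log2 ratio (with M2BPGi over without) against median transcript length on a log axis for the 33 members, coloured by role, with names for those at least 1.2-fold higher or lower. Grey bars are the medians of all genes in 4 classes of length, from 0.04 in the shortest to -0.13 in the longest, and genes beyond the ends of the axis are part of those medians.

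The promoters of the members were read from RefSeq (GRCh38.p14, 250 bases before to 50 bases from the annotated start). There 32 of the 36 members matched by symbol, ATG101 and ULK2 among them. A gene has 1 window here, which was not placed by its CAGE tags and need not hold the start in use. The windows were searched for CACGTG, the core of the sites that TFEB and TFE3, regulators of autophagy and lysosome genes, are known to bind. The letters read the same on both strands. They occur in 2 of the 32 promoters (6.25%), against 7.43% of all 27305 promoters. Among genes that averaged at least 1 CPM they occur in 2 of 30 members (6.67%), without ATG101 and ULK2, against 10.4% of 8799 promoters. For the other autophagy genes described below they occur in 6 of 42 promoters (14.3%). Differences between these shares were not tested. The promoters that hold them are those of ATG3 and ATG14, whose log2 ratios were 0.29 and -0.13. The promoters of the members with the highest and the lowest log2 ratio among those that averaged at least 10 CPM, GABARAP and PIK3R4, are shown beside them, and CACGTG is not in either window. All 4 lie on the minus strand, at chr17:7242400-7242699 for GABARAP, chr3:130746780-130747079 for PIK3R4, chr3:112561913-112562212 for ATG3 and chr14:55411781-55412080 for ATG14. They are written 5′ to 3′ in the direction of the gene, base 251 is the annotated start, and capitals mark CACGTG. The build is not hg19, which the submitters' processing notes name.
GABARAP: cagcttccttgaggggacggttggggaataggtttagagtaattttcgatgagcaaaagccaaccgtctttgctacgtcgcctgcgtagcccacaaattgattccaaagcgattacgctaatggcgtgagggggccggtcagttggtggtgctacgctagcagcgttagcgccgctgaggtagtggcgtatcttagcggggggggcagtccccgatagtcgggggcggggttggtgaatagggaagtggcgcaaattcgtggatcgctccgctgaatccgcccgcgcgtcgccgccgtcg
PIK3R4: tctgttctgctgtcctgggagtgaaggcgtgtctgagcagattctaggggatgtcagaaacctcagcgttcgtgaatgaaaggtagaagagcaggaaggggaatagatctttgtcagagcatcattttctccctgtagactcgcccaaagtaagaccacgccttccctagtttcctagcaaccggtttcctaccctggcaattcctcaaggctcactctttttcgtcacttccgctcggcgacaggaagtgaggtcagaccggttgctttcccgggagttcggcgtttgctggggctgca
ATG3: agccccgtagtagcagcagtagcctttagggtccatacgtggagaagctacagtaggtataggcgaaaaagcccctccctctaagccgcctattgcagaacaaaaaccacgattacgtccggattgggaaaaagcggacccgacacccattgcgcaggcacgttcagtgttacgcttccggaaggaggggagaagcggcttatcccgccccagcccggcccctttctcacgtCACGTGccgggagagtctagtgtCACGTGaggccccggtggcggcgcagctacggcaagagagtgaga
ATG14: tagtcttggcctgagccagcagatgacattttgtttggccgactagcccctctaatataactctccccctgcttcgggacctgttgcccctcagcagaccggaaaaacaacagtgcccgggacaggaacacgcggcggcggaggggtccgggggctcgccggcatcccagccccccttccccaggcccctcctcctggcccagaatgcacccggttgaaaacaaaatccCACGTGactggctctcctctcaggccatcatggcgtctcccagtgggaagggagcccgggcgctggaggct

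In ATG3 the letters occur 2 times, and in ATG14 1 time, starting 21 bases before the annotated start. A match is a description of these letters and not of a bound site.

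A list of 53 other autophagy genes was set beside the members: paralogs and cofactors of the core proteins, genes of autophagosome fusion with the lysosome, other selective receptors, and transcriptional regulators of the pathway. Of these 52 are listed and 50 averaged at least 1 CPM. Their median log2 ratio was -0.11, with 15 genes higher and 34 lower with M2BPGi, against 0.03 for the members. At least 1.2-fold higher were 3 of them (6.0%, against 13.0% of all genes) and at least 1.2-fold lower 12 (24.0%, against 24.2%, so near the share of all genes). With 5 CPM added in place of 1 these counts were 1 (2.0%, against 8.95%) and 9 (18.0%, against 16.0%). Among the 36 that averaged at least 10 CPM they were 0 (against 13.2% of genes at that level) and 7 (19.4%, against 21.1%), and among the 39 for which no copy was found 1 and 10. The interval lay above a ratio of 1 for 7 (14.0%, against 22.8%) and below it for 22 (44%, against 31.5%), and after rescaling for 8 (16.0%, against 27.7%) and 16 (32%, against 26.0%). The difference between the lists was not tested. The paralogs and cofactors had the lowest median of these 4 groups with -0.27, and the transcriptional regulators had -0.05.

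The other autophagy genes at least 1.5-fold lower were ATG16L2 and VMP1, 2 of 50 (4.0%, against 4.04% of all genes, so near the share of all genes). Neither was past it under every setting, since ATG16L2 had a log2 ratio of -0.54 with 5 CPM added in place of 1, and VMP1 had -0.55 after rescaling, which leaves 1 of the 2 past 1.5-fold in either case. With 0.1 CPM added 4 were past it. ATG16L2, a paralog of ATG16L1, had 10.15 CPM without and 5.43 CPM with M2BPGi, a log2 ratio of -0.79, while ATG16L1 itself was level. VMP1, a scramblase of the endoplasmic reticulum that works with ATG2 and ATG9A, had 242 and 159.5 CPM, a log2 ratio of -0.60 (interval -0.66 to -0.54). TMEM41B, another scramblase, named after its value was seen, had 164 and 133 CPM. Its log2 ratio was -0.3, and after rescaling it was -0.25, short of 1.2-fold. MIR21, which overlaps VMP1 on the same strand, had 5.45 and 2.01 CPM, and which gene tags from the shared region were given to is not stated in the sources used here. TEX264, a receptor for the endoplasmic reticulum, had 196 and 146 CPM, and VPS18, a subunit of the HOPS tethering complex, had 60.4 and 46.05 CPM, log2 ratios of -0.43 and -0.38. TEX264, VPS18 and VMP1 were the 3 lowest that averaged at least 10 CPM. The 3 highest were PHB2, a mitophagy receptor of the inner mitochondrial membrane, with 232 and 269.8 CPM, RAB7A, the GTPase of late endosomes, with 149.96 and 169 CPM, and SNAP29, a SNARE of autophagosome fusion, with 54.7 and 60.7 CPM. Their log2 ratios were 0.21, 0.17 and 0.15, smaller than those of GABARAP, MAP1LC3B and GABARAPL2 and larger than that of GABARAPL1.

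Of the regulators of autophagy genes, TFEB was low and near level. TFEB had 3.20 CPM without and 3.06 CPM with M2BPGi, and TFE3 had 57.4 and 51.3 CPM, with intervals of -0.54 to 0.41 and -0.27 to -0.05, so that of TFE3 lay below a ratio of 1 in the deposited scaling. After rescaling it was -0.22 to 0.00, no longer clear of 1. FOXO3, a regulator of GABARAPL1 and LC3 genes in other tissues, had 3.45 and 5.59 CPM, the highest log2 ratio of the list with 0.57, and has near-identical copies. Its log2 ratio was 0.33 with 5 CPM added in place of 1, 0.68 with 0.1 CPM added and 0.62 after rescaling, past 1.5-fold in the last 2. FOXO1 had 8.74 and 6.64 CPM, a log2 ratio of -0.35, so the FOXO genes went in opposite directions. Of the 7 regulators compared 3 were higher and 4 lower, and the others were MITF (0.13), USF2 (0.09) and ZKSCAN3 (-0.08). The regulators were named after their values were seen.

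Markers were read to check the label of the cells. All 12 hepatocyte or hepatoma markers are listed, with a summed level of 4542 CPM without and 4172 CPM with M2BPGi. Of these, 9 were lower and 3 higher, and without KRT18 the sum was 3292 and 2580.2 CPM. The most abundant was KRT18 with 1249.8 and 1592 CPM, FGB had 950.03 and 623 CPM, SERPINA1 had 671 and 455 CPM and AFP had 695 and 566 CPM, while ALB was low with 8.82 and 7.04 CPM. The other markers lower were TF, APOB, TTR, GPC3 and KRT8, and those higher besides KRT18 were HNF4A and APOA1. Of 6 stellate or stromal markers 1 is listed, COL1A1, with 0.67 and 0.76 CPM. Of 6 macrophage or leukocyte markers 3 are listed, LYZ with 32.1 and 29.2 CPM, CD68 with 21.2 and 20.47 CPM, and PTPRC at 0 CPM in both libraries. The 4 endothelial markers are not among the listed genes. The libraries thus carry hepatoma transcripts. Of the listed macrophage or leukocyte markers PTPRC was at 0, while LYZ and CD68 were near or above the median of all genes compared (21.26 and 20.35 CPM). The part of the lower hepatocyte markers in the members' values was not tested.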

How the data were processed

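CAGE libraries of non-treated and M2BPGi-treated PLC/PRF/5 cells, 1 each, were compared. The authors deposited 1 CPM value per gene and library, with 2 decimals. The submitters' processing notes name BWA, HISAT2 and hg19, whereas the methods of the study name a mouse genome; the identifiers are human. How tags were given to genes is not stated in the sources used here. Library totals and tag numbers were read from the CPM steps. All values above 0 (100%) lay within the rounding (0.005 CPM) of a whole number of tags, but of values up to 20 tags only 87.6% (non-treated) and 94.1% (M2BPGi-treated) lay within 0.1 tags of one. That limit is narrower than the rounding itself (0.12 and 0.124 tags). Shares below the 95% that was required thus do not show that the values are not counts. The exact test of tag numbers was not run, and the intervals rest on tag numbers rounded to the nearest whole. Named genes were every member, the other autophagy genes at least 1.5-fold higher or lower, the 3 highest and 3 lowest of these that averaged at least 10 CPM, and the markers. TMEM41B and the transcriptional regulators were named after their values were seen. Members and lists were chosen with earlier results of these data known. A near-identical copy aligned to the first 500 nt of a transcript for 200 nt or more at an identity of 95% or more (BLAST+ 2.17.0, GENCODE v29). The steps were checked on simulated data with counting error alone and changes of 2-fold, which cannot show variation between cultures. Python 3.11.15, numpy 2.4.6, pandas 2.3.3, scipy 1.17.1 and matplotlib 3.10.9 were used. Alternatives were other pseudocounts, filters, folds and scaling.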

Additional observations from a re-analysis of the deposited data

How the results depend on the processing

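No paired analysis was possible because a condition is a single library, and for the same reason no library can be left out. Alternatives with TMM scaling or a count model with an assumed variation were not run.

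The median log2 ratio of the members, 0.03, was 0.04 with a filter of 10 CPM, 0.02 with no filter, 0.08 after rescaling to a median of 0 over all genes, -0.01 without genes for which a copy was found, and 0.02 with ATG101 added, an alternative chosen after seeing the data. That of the other autophagy genes, -0.11, was -0.12 with a pseudocount of 0.1 CPM, -0.09 with 5 CPM, -0.13 with a filter of 10 CPM and -0.06 after rescaling.

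The 6 members at least 1.2-fold higher were 4 with a pseudocount of 5 CPM, which left out AMBRA1 and OPTN, 5 with a filter of 10 CPM, 4 without genes for which a copy was found and 7 after rescaling. The 6 at least 1.2-fold lower were 3 with a pseudocount of 5 CPM, which left out PIK3C3, ATG2B and ATG4A, 2 with a filter of 10 CPM, 7 with a pseudocount of 0.1 CPM and 5 after rescaling. The 1 member at least 1.5-fold lower was 0 with a pseudocount of 5 CPM, 0 with a filter of 10 CPM and 0 at a fold of 2. Of the other autophagy genes, the 3 at least 1.2-fold higher were 1 with a pseudocount of 5 CPM, 0 with a filter of 10 CPM and 1 without genes that have a copy, and the 12 at least 1.2-fold lower were 7 with a filter of 10 CPM. Adding more CPM pulls the ratios of low genes toward 0, and a stricter filter leaves fewer genes.

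The counts of intervals above and below a ratio of 1, 9 and 7, were 14 and 5 after rescaling, 9 and 3 with a filter of 10 CPM, and 6 and 7 without genes for which a copy was found. Those of the other autophagy genes, 7 and 22, were 8 and 16 after rescaling. These alternatives were added after seeing the data. Under the pseudocounts and the rescaling, which can move the log2 ratio of a single gene, 245 of 249 values stayed within their counting interval, and ATG2A, ATG16L2, SQSTM1 and SEC62 each left it once. Depth limits counting error alone, and no comparison of the conditions has replicates.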
